A study of Mus musculus with 2 samples.

Results

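The genes Fosb, Fos, Jun and Junb encode core subunits of AP-1, and the Aiolos peaks at their loci are described here. The peaks were chosen by 2 rules: the authors had assigned the peak to one of the 4 genes, or the peak lay within 100 kb of the annotated start of one, whatever gene it was assigned to. The rules gave 12 of the 1404 peaks in the authors' list, of which 7 were assigned to an AP-1 gene and 5 to a neighbour. The genes were picked because each had an assigned peak, as did 5.38% of all 21896 protein-coding genes in the RefSeq table. The presence of a peak is therefore no finding, and the values below are a description without a test.

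Aiolos is a zinc finger factor of the Ikaros family, encoded by Ikzf3. It was mapped by CUT&RUN, in which an antibody directs a protein A and micrococcal nuclease fusion to chromatin and the released DNA is sequenced. The cells were mouse natural killer (NK) cells from spleen, cultured in interleukin-15 at 50 ng/ml, with 500000 or more used for each sample. There was 1 library with the Aiolos antibody and 1 without a primary antibody. The sources used here give no strain, age or genotype, and a peak list cannot check the cell type. Replicate error cannot be estimated from 1 library in each group. The intervals below cover the counting error of the antibody tags alone, with the background held fixed.

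AP-1 is a dimer of basic leucine zipper proteins. Jun proteins can pair with each other or with Fos proteins, whereas Fos proteins need a Jun partner to bind DNA. Fos, Fosb, Jun and Junb are immediate-early genes, whose transcription rises soon after a cell is stimulated, and AP-1 takes part in the transcription of cytokine genes in activated lymphocytes. The title of the series names AP-1 complexes as targets of Ikaros and Aiolos, so the question for these loci is where the antibody library exceeded its background and which gene start lay nearest.

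The stretches of 3 promoters that lay inside a peak are shown first, because they hold the only 3 of the 7 assigned peaks that touched or bordered a gene start. They are the peak bases that precede the gene's RefSeq limits and lie within the 250 bases before its start that the table holds, which leaves out the far end of the Fosb peak. They are read 5′ to 3′ on the gene's strand from the RefSeq promoter table (GRCm38.p6, the assembly of mm10). Capitals mark GGGAA, the core of sites bound by the Ikaros family, or its reverse complement TTCCC. Gm26802 is a long non-coding RNA gene beside Fosb. Its printed stretch holds no GGGAA, but its peak also covers a match outside the print, which begins 4 bases after the start.
Fosb promoter, chr7:19310119-19310295, minus strand: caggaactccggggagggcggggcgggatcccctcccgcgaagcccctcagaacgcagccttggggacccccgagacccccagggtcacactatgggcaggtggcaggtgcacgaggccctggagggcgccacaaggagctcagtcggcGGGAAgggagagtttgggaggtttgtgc
Junb promoter, chr8:84978749-84978931, minus strand: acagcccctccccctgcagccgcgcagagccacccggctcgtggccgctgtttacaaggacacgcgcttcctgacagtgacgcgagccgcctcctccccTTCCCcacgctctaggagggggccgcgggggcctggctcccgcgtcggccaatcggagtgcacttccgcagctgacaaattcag
Gm26802 promoter, chr7:19300794-19300986, minus strand: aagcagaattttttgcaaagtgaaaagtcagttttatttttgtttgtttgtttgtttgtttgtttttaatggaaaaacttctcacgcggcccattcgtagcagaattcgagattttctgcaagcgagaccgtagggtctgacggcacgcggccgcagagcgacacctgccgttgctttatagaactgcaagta

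The 4 loci differed in how many peaks they held. Within 100 kb of the start there were 9 peaks at Fosb, 1 at Fos, 1 at Junb and 0 at Jun. Over the 17491 protein-coding genes with a start in the promoter table the median was 0 peaks, and 23.8% had at least 1. The count of 9 was the highest of all and was shared by 19 genes, 0.109%. These genes formed 2 stretches of the genome. One was a histone gene cluster on chromosome 13 with 14 of them, and the other was the Fosb locus itself, where the windows of Gm38499, Vasp, Ppm1n, Rtn2 and Fosb overlap and share most of their peaks. Fosb was thus in one of the densest stretches of peaks in the list, and Fos, Jun and Junb had counts of 0 or 1. The assigned peaks of Fosb, for which it was picked, are among its 9. The share of 0.109% is therefore no measure of enrichment.

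**Figure D1:**
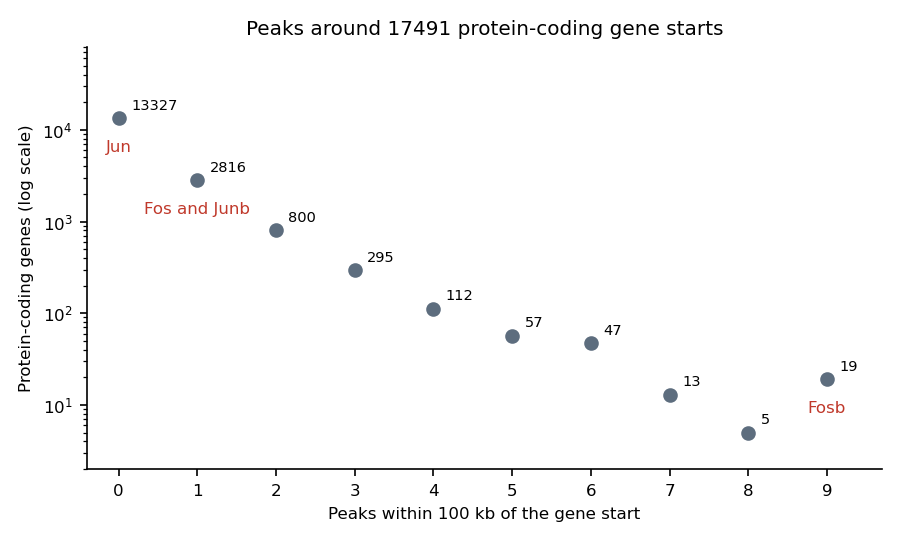
Number of protein-coding genes (log axis) by the number of peaks within 100 kb of their start, each point labelled with its count of genes, for 17491 genes. Fosb falls in the last class with 9 peaks, Fos and Junb in the class with 1, and Jun in the class with 0.

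The loci also differed in their genes. The Fosb window overlapped 12 protein-coding genes and the Junb window 18, whereas the Fos and Jun windows overlapped 2 each. In the Fosb window 12 coding genes had a start in the promoter table. Of these, 5 had a peak within 1 kb of that start (Opa3, Vasp, Fosb, Ercc1 and Cd3eap). In the Junb window it was 1 of 15, Junb itself, and over all genes of the table the share was 4.85%. Ppp1r13l was not counted, because its peak covers the start the authors used but is more than 1 kb from its start in that table. The Junb window includes Klf1, an erythroid transcription factor gene, and Prdx2, which encodes a peroxiredoxin and starts 9.10 kb from Junb, and neither had an assigned peak.

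**Figure D2:**
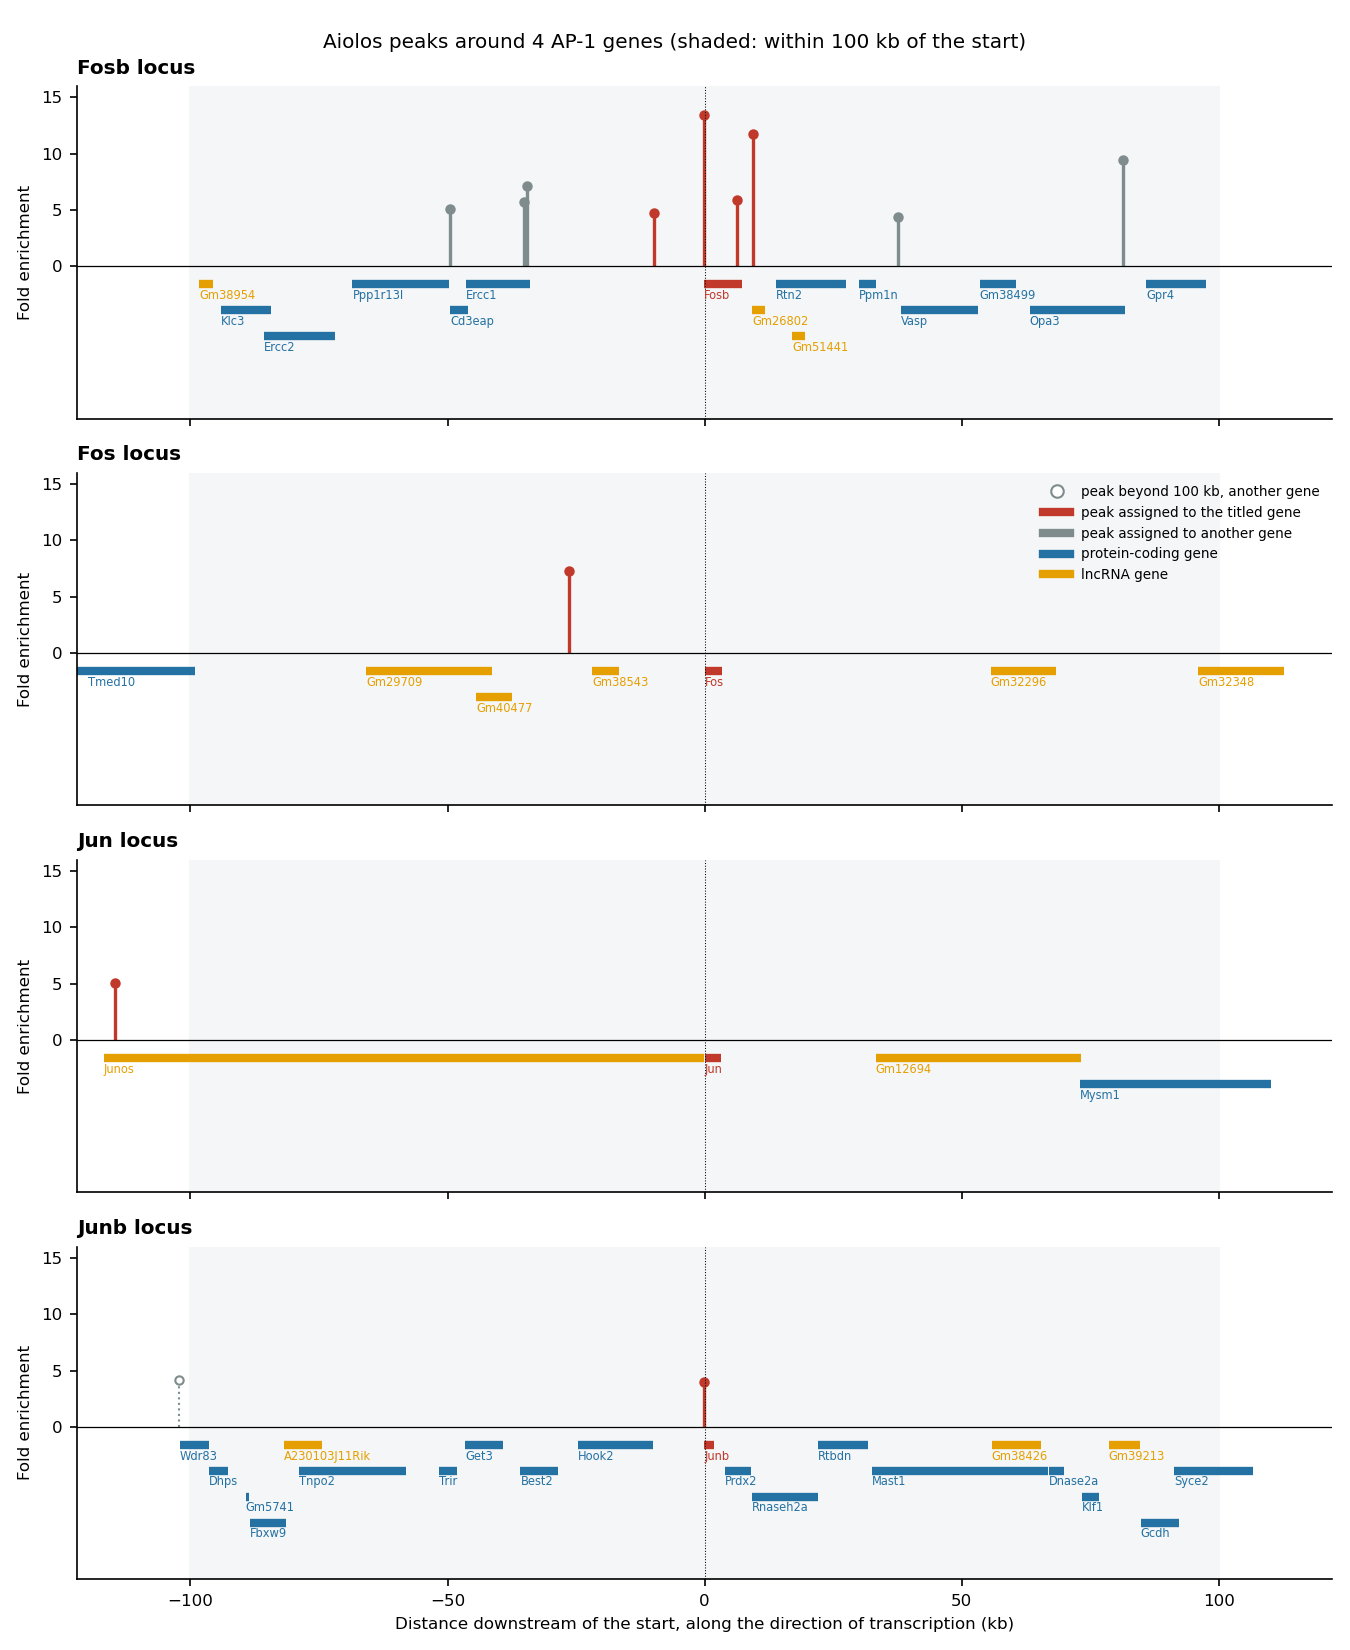
Aiolos peaks as stems (fold enrichment, y axis) by distance from the start of each AP-1 gene along its direction of transcription (kb, x axis), with protein-coding genes, lncRNA genes and the titled gene as bars below. The Fosb panel holds 9 peaks within the shaded 100 kb, the Fos and Junb panels 1 each, and the Jun peak lies outside the shading.

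Fosb, a Fos family subunit, carried the strongest of these peaks. The promoter peak on chromosome 7 at 19310073 to 19310311 was enriched 13.5-fold over background (8.38 to 20.7, the exact Poisson interval of its tags at 95%). It rested on 19 tags at the summit over a local background of 0.485 tags, with a -log10 q of 19.6. The summit lay 0.124 kb upstream of the start that the authors used, and 1373 of the 1404 peaks had a lower fold. The fold, q and gene assignment of each peak are the authors' values, whereas the tags and the background were recovered from the fold and p. The fold was read as a ratio formed after a constant is added to both tags and background. It is therefore lower than tags divided by background. The next gene start was 9.28 kb away, at Gm26802, so this peak had no close rival.

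The second strong Fosb peak, at 19300553 to 19300986, had 11.7-fold enrichment (6.63 to 19.5) from 13 tags. Its interval overlapped that of the promoter peak, so the order of the pair was not resolved at this depth. The authors assigned it to a shorter Fosb transcript whose start lies 8.61 kb away, and classed it as an exon of another transcript. In the RefSeq table the peak covered the start of Gm26802, at position 19300793, with its summit 149 bp inside that gene. By nearest start the peak belonged to Gm26802, and by nearest protein-coding start to Fosb.

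A weaker pair completed the Fosb group. The peak at 19303718 to 19303930, classed by the authors as 3' untranslated region, had 5.86-fold enrichment (2.68 to 11.8) from 6 tags. It was inside the gene body of Fosb, yet the start of Gm26802, at 2.93 kb, was nearer than that of the Fosb transcript the authors used, at 5.67 kb. The intergenic peak at 19319848 to 19320060, 9.80 kb upstream, had 4.72-fold enrichment (2.61 to 7.97) from 12 tags over a background of 1.76 tags. By tags it ranked 256 of 1404 and by fold 1263, and 44 peaks of the list had a background as high or higher. The local background at this site was the highest among the 12 peaks.

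The 4 Fosb peaks were set 2.73, 6.14 and 9.54 kb apart and held 50 tags at their summits in all. All 4 lay within 10 kb of the start, and 10 of 17491 protein-coding genes had as many that close (0.0572%). Besides Fosb these were Per1, a circadian repressor gene, and 8 histone genes in 2 stretches of chromosome 13. By assignment, 6 protein-coding genes had at least 4 peaks (0.0274% of 21896). Fosb was among them with 4, and the highest count was 5. The limit of 10 kb was set after the positions had been seen. Fosb was picked for having an assigned peak, and its assigned peaks are those counted here. These shares are therefore no measure of enrichment.

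**Figure D3:**
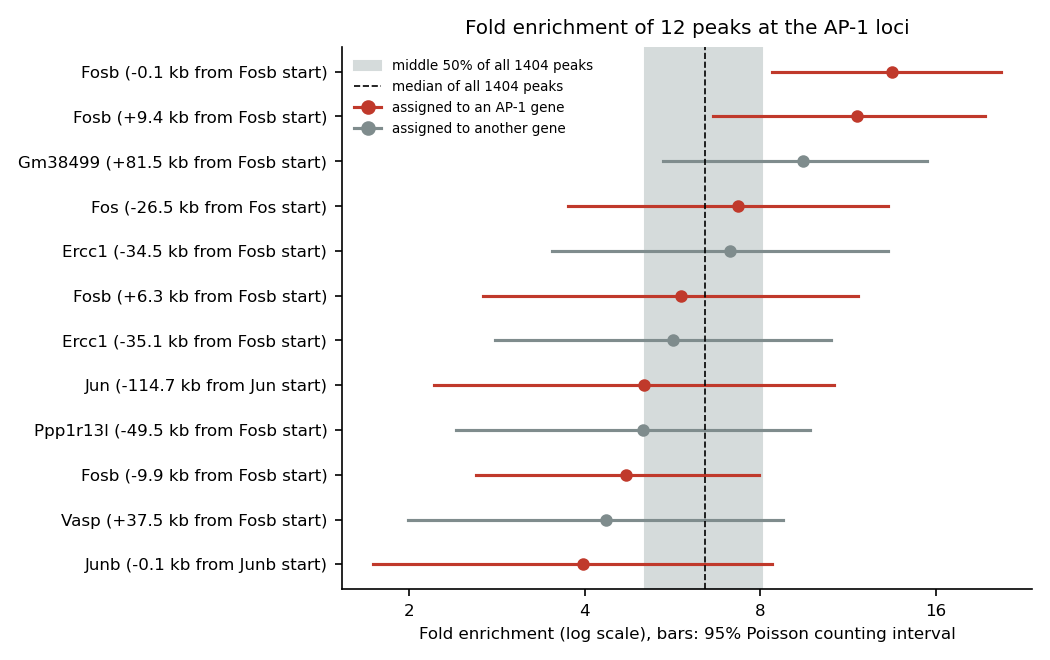
Fold enrichment (log axis) of the 12 peaks with 95% Poisson counting intervals as bars, named by assigned gene and by the distance of the summit from the AP-1 gene start, against the median (dashed) and the interquartile range (shaded) of all 1404 peaks. The Fosb peaks at 13.5-fold and 11.7-fold lie to the right of the shaded band with lower bounds above the median of 6.44, and the intervals of the other 10 peaks include that median.

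The neighbours of Fosb carried 5 further peaks, all at gene starts. Ercc1, a subunit of the nuclease of nucleotide excision repair, had 2, of 7.10-fold (3.52 to 13.2) and 5.68-fold (2.81 to 10.6), with 8 tags each and 316 bp between them. They lay 34.4 and 35.1 kb upstream of Fosb, each over the start of an Ercc1 transcript. Vasp, which promotes actin assembly, had a wide peak of 846 bp with 4.36-fold enrichment (1.99 to 8.75), 37.3 kb from the Fosb start and 65 bp from the Vasp start the authors used. For Vasp and Ercc1 the nearest start was that of the assigned gene.

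The remaining pair of neighbour peaks had a rival. The peak given to Gm38499, of 9.46-fold (5.46 to 15.4) from 14 tags, lay 23 bp from the start of Opa3, which encodes a mitochondrial protein, and inside its gene body. The authors' transcript for it runs from 19228383 to 19256543 and spans both Opa3 and Gm38499. The peak given to Ppp1r13l, an inhibitor of p53, had 5.05-fold enrichment (2.41 to 9.73) from 7 tags and covered the start of the transcript used. It also lay 24 bp from the start of Cd3eap, a gene of an RNA polymerase I subunit on the opposite strand. The genes are transcribed away from each other. The Fosb window also held Gpr4, Ppm1n, Rtn2, Ercc2 and Klc3, none of which had an assigned peak or a peak within 1 kb of its start.

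Fos, the founding Fos family member, had no peak at its promoter. Its assigned peak, on chromosome 12 at 85447250 to 85447475, was intergenic and began 26.4 kb before the start. Its enrichment was 7.33-fold (3.75 to 13.3), from 9 tags over 0.364 tags. This was above the list median of 6.44-fold, with 905 peaks lower. Of all peaks, 8.55% lay at least as far from their assigned start. The start of the lncRNA gene Gm38543 was nearer, at 4.58 kb, and the peak lay in no gene body of the table. The only other protein-coding gene in the window was Tmed10, a receptor of the secretory pathway, whose start was 99.2 kb away. The AP-1 genes Jdp2 and Batf follow Fos on the same chromosome, with starts at 125 and 213 kb, and neither had a peak within 100 kb.

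Jun, the partner subunit of Fos, had 0 peaks within 100 kb of its start. The peak assigned to it, on chromosome 4 at 95166530 to 95166979, lay 114 kb upstream, and 1.35% of all peaks lay at least that far from their assigned start. It had 5.06-fold enrichment (2.21 to 10.7) from 5 tags over 0.186 tags. This background is the lowest in the list and was held by 365 peaks, of which 74 also had 5 tags. The peak was in an intron of a transcript other than that of Jun and inside the RefSeq gene Junos, an lncRNA gene on the opposite strand that begins 0.095 kb from the Jun start. A later Junos start, 19.0 kb away, was the nearest start to the peak. No protein-coding start was nearer than that of Jun.

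Junb, a Jun family subunit, had a single peak that covered its RefSeq start, on chromosome 8 at 84978719 to 84978931. It had 3.98-fold enrichment (1.74 to 8.39) from 5 tags over 0.509 tags. Only 5 peaks of the list had a lower fold and 2 a lower -log10 q, which was 1.31 here, so the peak stood at the edge of what the authors called. It had no close rival, as the next start, of Prdx2, was 9.10 kb away. With each background held fixed, the counting intervals of the Junb and Fosb promoter peaks overlapped only from 8.38 to 8.39.

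By fold the 7 assigned peaks ran from percentile 0.427 to 97.9 of the list, and 4 of them belonged to Fosb. Their median fold was 5.86, beside a list median of 6.44. Of the 7, 3 exceeded the list median: the Fosb promoter peak, the Fosb peak over the Gm26802 start and the Fos peak. With 7 peaks this is no contrast with the list. Summits of the 12 peaks held 5 to 19 tags, within a list range of 4 to 63 and a list median of 8. The 3 narrowest assigned peaks, the Fosb 3' untranslated and intergenic peaks and the Junb peak, were each 213 bp wide, near the shortest width of 207 bp in the list.

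**Figure D4:**
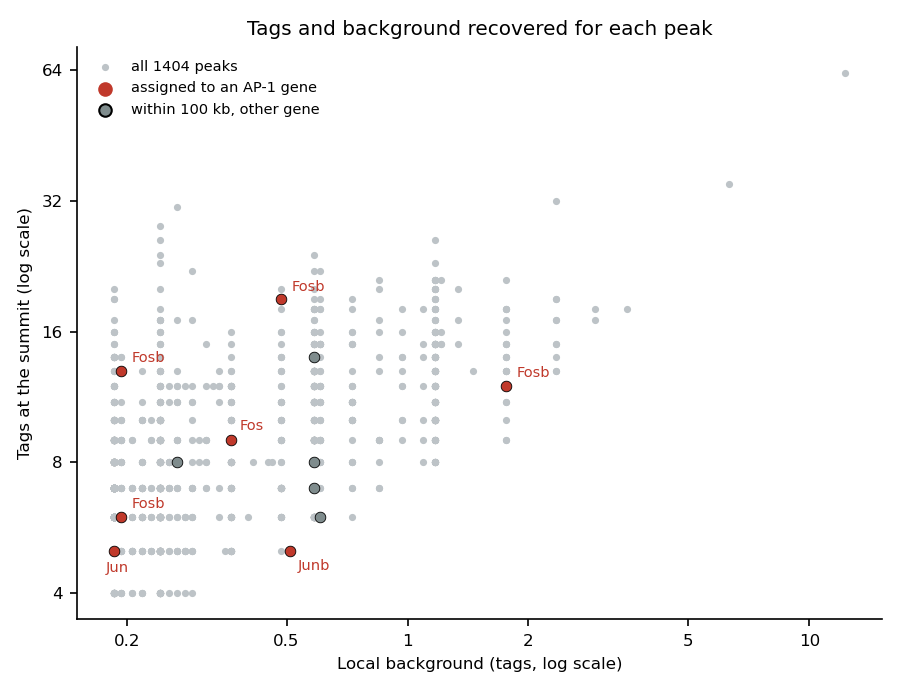
Tags at the summit against local background (both log axes) for all 1404 peaks, with the 12 peaks of the AP-1 loci marked and the 7 assigned to an AP-1 gene named. The Fosb promoter peak is high with 19 tags, the Fosb intergenic peak is far right with a background of 1.76 tags, and the Jun and Junb peaks hold 5 tags each.

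The peaks just inside and outside the limit of 100 kb show what the rule set. The farthest included was the Gm38499 peak at 81.2 kb from Fosb. Beyond the limit came the peak at Wdr83os, 102 kb from Junb, with 4.19-fold enrichment (1.75 to 9.42), and then the Jun peak at 114 kb, kept by its assignment. At Fosb the next peaks were those of Snrpd2, at 160 kb with 9.67-fold (6.09 to 14.7), and of Bloc1s3, at 198 kb with 16.9-fold (10.5 to 25.9).

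Rival starts were common among the assigned peaks. For 3 of the 7 the nearest start in the promoter table was that of the AP-1 gene: the Fosb promoter peak, the Fosb intergenic peak and the Junb peak. For the other 4 it was an lncRNA gene, Gm26802 for a pair of Fosb peaks, Gm38543 for the Fos peak and Junos for the Jun peak. Over the 1139 peaks whose assigned gene was in the table, another gene had the nearest start in 18.3%. That share covers peaks at any distance, whereas the 4 peaks with a rival lay 5.67 kb or more from their assigned start. The shares are therefore not alike. With non-coding genes set aside, the AP-1 gene was nearest for 7 of 7. A peak within 1 kb of the assigned start (centre to start) was present for Fosb and Junb, and 3.79% of protein-coding genes had one.

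The promoters were searched for 12 short motifs on both strands, from 250 bases before to 50 after the RefSeq start. The Ikaros core GGGAA was found in all 4 AP-1 promoters, and in 62.7% of the 32851 promoters of the table and 64.4% of the 845 that overlapped a peak. In the Fosb window the match begins 101 bases before the start, and in Junb 84 bases before. The Fosb start used here was 19310045, whereas the RefSeq limit of the gene, 19310118, lies farther upstream and inside the peak. Counted from that limit, the match and the summit would lie nearer. In both promoters the middle of the match lay 31 bases from the summit, on the downstream side in Fosb and on the upstream side in Junb. Of 185 summits at least 60 bases inside a promoter window, 24.9% had a GGGAA this close. The longer form TGGGAA, which contains GGGAA, occurred in Jun alone of the 4, against 25.6% of promoters and 21.3% of those overlapping a peak. Matches are descriptions of the letters and not of binding.

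**Figure D5:**
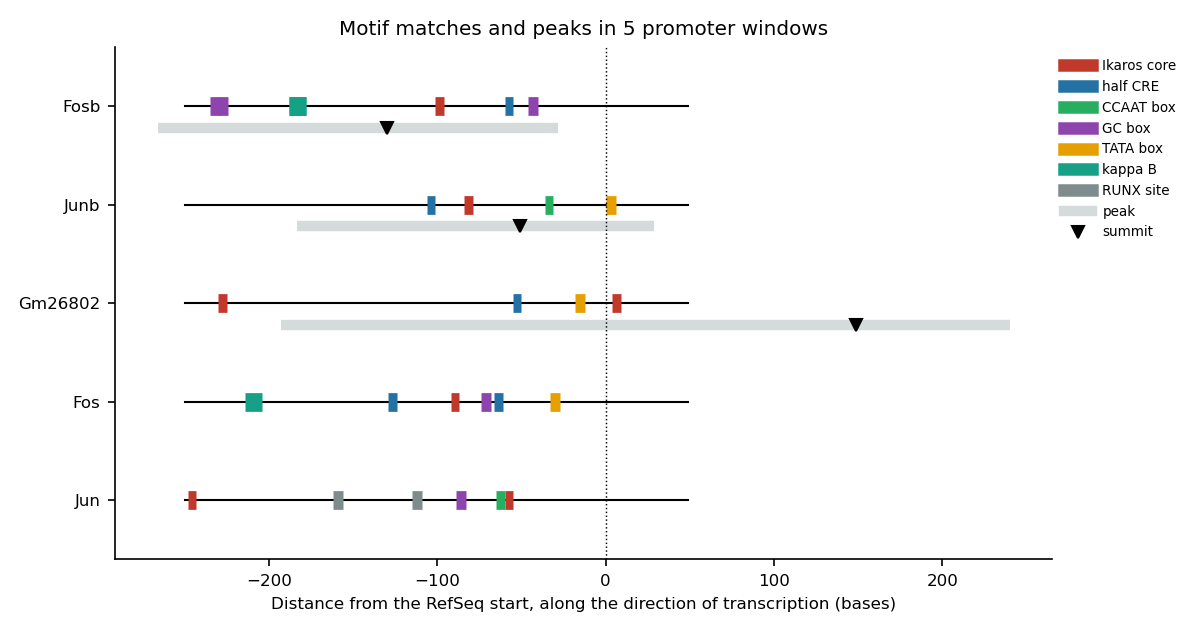
Motif matches (coloured blocks) by distance from the RefSeq start (bases), with the peak as a grey bar and its summit as a triangle, for the promoters of Fosb, Junb, Gm26802, Fos and Jun. The Fosb and Junb summits lie 130 and 51 bases before the start, the Gm26802 summit lies 149 bases after it, and Fos and Jun have no peak in this window.

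No exact match to the AP-1 site, the full cAMP response element, the CArG box or the ETS site was found in the 4 windows. Variant forms, and sites outside the windows, were not searched. The AP-1 site TGANTCA, at which the N is any base, occurred in 0 of the 4 promoters and in 7.81% of all. The full cAMP response element TGACGTCA also occurred in 0 of 4 and in 1.79% of all. The CArG box, bound by serum response factor, was in 0 of 4 and in 1.63% of all, and the ETS site CCGGAA in 0 of 4 and in 14.9%. Among promoters overlapping a peak these shares were 4.50%, 3.91%, 1.54% and 29.2%. With only 4 promoters, 0 matches is no contrast with such shares. TGACG, which is contained in the cAMP response element, was in Fosb, Fos and Junb, against 20.8% of all promoters and 42.7% of those overlapping a peak.

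General promoter motifs varied among the 4 genes. The GC box GGGCGG was in Fosb (3 matches), Fos and Jun, against 35.7% of all promoters and 69.5% of those overlapping a peak. The CCAAT box was in Jun and Junb (37.4% of all, 53.0% of those overlapping a peak), where it ended 61 and 32 bases before the start. The TATA box TATAAA was in Fos, 33 bases before the start, and in Junb (13.6% of all, 6.27% of those overlapping a peak). In Junb it began at the RefSeq start itself, which lies 0.03 kb outside the start the authors used. A kappa B match was in Fosb and Fos (8.46% and 8.88%), and the RUNX site TGNGGT in Jun (45.8% and 38.2%). The G and C content ran from 58.7% in Fos to 68.3% in Fosb, above the median promoter at 52.7% in all 4. The Gm26802 window had 45.7%, below that median.

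Beside these 4, a list of 8 further AP-1 core genes held Atf3, Jdp2, Jund, the Batf genes (Batf, Batf2, Batf3) and the Fos-like genes Fosl1 and Fosl2. Of these, 0 had an assigned peak, a contrast with the 4 that the choice of genes fixes. Of the 6 with a known start, 1 had a peak within 100 kb, beside 23.8% of all protein-coding genes. This was Jund, with 4 peaks at 86.9 to 99.6 kb, which the authors gave to Ssbp4 and Mast3. The strongest of them, at Mast3, had 8.63-fold enrichment (5.15 to 13.7). Jund thus had peaks in its window but none nearer than 86.9 kb.

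Genes around AP-1 signalling were counted in 4 further lists, also chosen with earlier results of these data known. That choice can raise the shares below, so they are no measure of enrichment. Of 18 kinases and factors upstream of AP-1, 3 had an assigned peak, 16.7% beside 5.38% of all protein-coding genes. These were Map2k2, a MAP kinase kinase, at 7.39-fold and Creb1, a bZIP factor, at 5.05-fold at their promoters, and Elk4, an ETS factor that partners serum response factor, at 8.09-fold in an intron. Of 12 feedback and turnover genes, 7 had one (58.3%, beside 5.38%), 5 of them at the promoter (beside 3.79% of all protein-coding genes). Promoter peaks were found at Zfp36l1 (8.72-fold), Dusp6 (7.75-fold), Dusp1 (5.99-fold), Zfp36l2 (5.06-fold) and Zfp36 (4.14-fold). The last 3 each had a peak of higher fold farther from the start. It was of 10.3-fold at 2.37 kb for Zfp36, 8.20-fold at 6.44 kb for Dusp1 and 7.10-fold at 4.14 kb for Zfp36l2. The intervals for Dusp1 (4.54 to 13.8) and Zfp36l2 (3.52 to 13.2) include the promoter folds, and both Dusp1 peaks held 12 tags. Itch and Dusp10 had peaks of 7.59-fold and 5.63-fold away from their promoters. Dusp genes encode phosphatases that act on MAP kinases, and Zfp36 proteins promote mRNA decay.

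Of 8 partner factors 5 had a peak (62.5%, beside 5.38% of all protein-coding genes), 4 of them at the promoter (beside 3.79%). The promoter peaks were at Runx3 (7.24-fold), Runx1 (6.95-fold), Irf8 (5.13-fold) and Nfatc3 (5.05-fold). Irf8 also had a peak of 5.99-fold at 19.9 kb, whose interval (3.32 to 10.1) includes the promoter fold. Nfatc1, whose protein binds composite sites with AP-1, had a peak of 4.83-fold in an intron. Of 10 other immediate-early genes 2 had a peak (beside 5.38% of all protein-coding genes), Egr1 at its promoter with 14.1-fold (8.90 to 21.5, 20 tags) and Ier2 with 6.32-fold. Egr1 and the Fosb promoter, with 20 and 19 tags, had overlapping intervals. Expression was not measured here, so these counts describe peaks and not transcription.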

How the data were processed

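The input was the 1 peak list deposited for the series. MACS2, Bowtie2, Picard, SAMtools and mm10 are named per the submitters' processing notes, without role or order, and the sources used here do not give the q cutoff or say whether the library without antibody served as control. Each peak carries, per the file headers, a signal value, read here as the fold enrichment ratio of MACS2, with a -log10 p and a -log10 q. The authors' score column follows the -log10 q and was not used. The values served to describe and rank peaks within the list.

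The whole number of tags and the background at each summit were recovered from fold and p. The largest error in -log10 p was 1.75e-05. The fold was assumed to be tags plus 1 over background plus 1, so it is lower than tags divided by background. The solver was tested on data simulated with the same formulas, which cannot check the formulas themselves. Library depth is not in the file. Intervals are exact Poisson at 95% with the background fixed, so the counting error of the background is left out. That omission, and any duplicates of 1 molecule, would make the intervals too narrow.

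Window distances run from the peak edge to the start of the transcript the authors used. Promoter sequences and starts came from RefSeq (GRCm38.p6), where all 4 genes matched by symbol. Of 21896 protein-coding genes 17491 had a start there, and a gene with several starts counted with its fullest window. Genes without a start were not used as rivals. No test was run. The members and lists were chosen with earlier results of these data known. The rule for named genes took the 4 AP-1 genes, genes assigned or nearest to a peak in the windows, and list genes with a promoter peak or among the 3 strongest others. Genes sharing a window count, neighbours without a peak and peaks beyond the windows were named after their values were seen. Python 3.11.15 and SciPy 1.17.1 were used.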

Additional observations from a re-analysis of the deposited data

How the results depend on the processing

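The half-window of 10 kb and the nearest start of any gene were added after the data were seen. A half-window of 500 kb gave 14 peaks at Fosb, 2 at Fos, 1 at Jun and 3 at Junb, and 0.646% of genes had as many as Fosb. With 200 kb Fos had 2, Jun 1 and Junb 2. With 50 kb the share of genes with as many peaks as Fosb (8 there) was 0.0286%. With 10 kb Fosb had 4 and Fos 0. Keeping the list's upper part by -log10 q, or by fold, each left 4 peaks in the Fosb window and 2 assigned to Fosb, and 0 for Jun and Junb on either count, and the stricter q left 2 window peaks of other genes. These follow from the construction of the windows and filters. By nearest start of any gene, the assigned counts were 2 for Fosb, 0 for Fos, 0 for Jun and 1 for Junb, and 8 window peaks belonged to other genes. By gene body, Fosb had 1 and Fos, Jun and Junb 0. Ranked by width, the Fosb promoter peak was at percentile 39.6 in place of 97.9, and ranked by tags the Fosb intergenic peak was at 81.8 in place of 10.1. In the 100 bases before the start, RUNX and kappa B matches were in 0 of the 4 promoters and the TATA box in 1. The other 61 of 96 values recomputed stayed within 1.5 times of a count, within the 95% binomial interval of a share, or, for a percentile, between those of the bounds of the peak's fold interval. The last limit is wide: by width the Jun peak went from percentile 23.6 to 76.9 and the Fos peak from 65.4 to 27.4, and by tags the Junb peak went from 0.427 to 14.5. Depth limits single peaks: with 5 tags at the Jun and Junb summits, their intervals span more than a factor of 4. No paired analysis was possible because each group is a single library.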
